A study of Mus musculus with 4 samples.

Results

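The odorant receptor genes numbered Olfr90 to Olfr139 were examined in mature and immature olfactory sensory neurons (OSNs) of the mouse main olfactory epithelium. The members were all genes in the merged UMI table named Olfr90 through Olfr139 with no -ps suffix, which marks pseudogenes. The rule gave 46 of the 1410 Olfr genes in the table. 45 of them lay next to the MHC on chromosome 17 (GRCm38, from the start of Olfr90 at 37083871 to the end of Olfr136 at 38336643). Olfr139 met the rule by its name only, since it lies on chromosome 11 (74044033 to 74056551, minus strand). It is kept below as a member.

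The study dissociated the olfactory epithelium of 4 male C57BL/6 mice aged 8 weeks, housed in groups and with no odorant treatment given in the labels, sorted live nucleated cells and sequenced 1 droplet library per mouse. All 4 mice form a single group, so every comparison is between cells or receptors within mice, with the mouse as the replicate. Each library held 4746 to 6003 barcodes with medians of 3625 to 5718 UMIs, and the deposited annotation retained 10519 mature OSNs. Between 4 and 14 barcodes were shared by any pair of libraries.

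Olfactory sensory neurons each transcribe a single odorant receptor allele out of a very large gene family, and the chosen receptor sets the odorants that the neuron detects and the glomerulus in the olfactory bulb that its axon reaches. Class I receptor genes sit in a single cluster on chromosome 7, and all other receptors, those beside the MHC included, are class II. Receptor genes flank the MHC in several mammals, and those of the mouse have drawn interest because body odours tied to the MHC influence social behaviour. Immature OSNs can transcribe several receptor genes at low levels before a single one dominates.

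The members fall into families of closely related sequences, and these families are the frame for the results below. Translated reading frames from the GENCODE M21 transcripts were found for all 46 members, with a median identity of 41.6% over the 1035 pairs of members. 35 of the members had another member at 80% identity or more, and 39 had their closest relative inside the set rather than elsewhere in the Olfr family. The closest pairs were Olfr110 with Olfr111 (97.8%), Olfr117 with Olfr130 (97.5%), Olfr136 with Olfr138 (96.2%) and Olfr133 with Olfr134 and with Olfr135 (95.8% each). Reads that match such copies equally well may be lost or split, so counts of these genes carry that uncertainty.

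A first family holds Olfr97, Olfr98, Olfr99, Olfr107 and Olfr108, whose translated frames shared 84.6% to 94.8% of residues. It is shown because its members were found in neurons of different transcriptomic clusters. The 60 coding bases below are the stretch with most differences in the family, on the coding strand of GRCm38 chromosome 17, and capitals mark the 26 positions at which the 5 genes are not all alike.
Olfr97, chr17:37231742-37231801, minus strand: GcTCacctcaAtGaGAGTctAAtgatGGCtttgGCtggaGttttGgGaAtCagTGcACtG
Olfr98, chr17:37263039-37263098, minus strand: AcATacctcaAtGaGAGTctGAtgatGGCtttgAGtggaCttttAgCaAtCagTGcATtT
Olfr99, chr17:37279795-37279854, minus strand: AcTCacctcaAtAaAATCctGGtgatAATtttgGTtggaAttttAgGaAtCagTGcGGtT
Olfr107, chr17:37406114-37406173, plus strand: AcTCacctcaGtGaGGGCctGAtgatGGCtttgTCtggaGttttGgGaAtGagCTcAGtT
Olfr108, chr17:37446120-37446179, plus strand: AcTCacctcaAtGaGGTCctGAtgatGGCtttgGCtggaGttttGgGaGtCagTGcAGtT

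A second group holds Olfr126, Olfr127 and Olfr128, which are consecutive among the members on the chromosome and differed at 59 of 927 coding positions (6.37%). It is shown because none of its genes had an assigned mature neuron although all had transcripts in immature neurons. The window was chosen in the same way, and capitals mark the 9 positions that differ.
Olfr126, chr17:37850744-37850803, plus strand: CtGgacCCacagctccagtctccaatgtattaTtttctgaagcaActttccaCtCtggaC
Olfr127, chr17:37903698-37903757, plus strand: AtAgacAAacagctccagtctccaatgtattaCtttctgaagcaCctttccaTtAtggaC
Olfr128, chr17:37923718-37923777, plus strand: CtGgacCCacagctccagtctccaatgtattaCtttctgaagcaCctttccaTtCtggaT

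The pair Olfr117 and Olfr130 differed at 27 of 954 coding positions (2.83%), and is shown because both are among the most frequent members although they lie on opposite strands and far apart. Capitals mark the 10 positions that differ in the window.
Olfr117, chr17:37659552-37659611, minus strand: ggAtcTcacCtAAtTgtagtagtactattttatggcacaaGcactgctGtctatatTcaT
Olfr130, chr17:38067893-38067952, plus strand: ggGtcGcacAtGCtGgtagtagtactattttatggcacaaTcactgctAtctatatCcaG

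Olfr136 and Olfr138 differed at 44 of 939 coding positions (4.69%), and are shown because their neurons lay mainly in the same cluster and their receptor transcript levels are set side by side below. Capitals mark the 7 positions that differ in the window.
Olfr136, chr17:38335621-38335680, plus strand: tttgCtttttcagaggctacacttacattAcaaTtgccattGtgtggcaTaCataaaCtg
Olfr138, chr17:38275235-38275294, plus strand: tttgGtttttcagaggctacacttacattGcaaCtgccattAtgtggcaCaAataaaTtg

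The first question was how many mature neurons carry each of these receptors. A neuron was counted for a receptor by its deposited identity, which requires its highest receptor to exceed 8.28 UMIs per 10000 UMIs of the cell and no second receptor to do so. 308 of 9791 neurons with an identity carried a member receptor, 78, 82, 47 and 101 of them in mice 1 to 4. The share was 2.90% in mouse 1 (Wilson 95% interval 2.33 to 3.604), 3.50% in mouse 2 (2.83 to 4.33), 2.67% in mouse 3 (2.02 to 3.53) and 3.37% in mouse 4 (2.78 to 4.07), with a mean of 3.11% ± 0.390 (SD, n = 4). These intervals overlap in all 4 mice and cover counting error only.

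The neurons were unevenly spread over the members. 41 of the 46 members had at least 1 neuron, and a member had a median of 4 neurons (quartiles 2.25 and 9). Among 945 other class II Olfr genes without the -ps suffix the median was 5 (quartiles 2 and 11) and the largest population had 83 neurons. 11 members (23.9%) had neurons in all 4 mice, against 35.7% of the other class II genes.

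**Figure D1:**
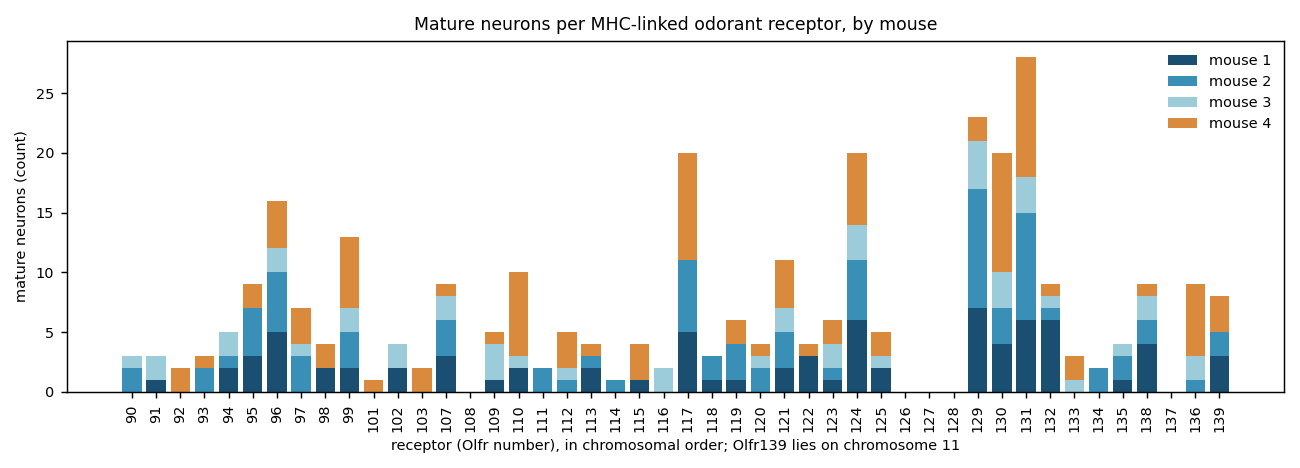
Mature neurons with each member receptor (count, vertical axis), in chromosomal order with Olfr139 last; colours stack the 4 mice. Olfr131 reaches 28 neurons, whereas Olfr108, Olfr126, Olfr127, Olfr128 and Olfr137 have none.

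The largest population was that of Olfr131 (ENSMUSG00000043312, chromosome 17, 38081624 to 38088693, minus strand), with 6, 9, 3 and 10 neurons in mice 1 to 4 and 28 in all. Olfr129 (38050857 to 38060079, minus strand) followed with 7, 10, 4 and 2 neurons, 23 in all. Olfr130 (38063921 to 38072790, plus strand) had 4, 3, 3 and 10 neurons. These 3 genes are consecutive among the members on the chromosome.

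Olfr124 (37799888 to 37808617, plus strand) also had 20 neurons, 6, 5, 3 and 6 per mouse. Olfr117 (37657600 to 37663782, minus strand), the near-copy of Olfr130, had 5, 6, 0 and 9 neurons, and mouse 3, which had the fewest neurons in all, gave none. Olfr96 (37220146 to 37226673, plus strand) had 5, 5, 2 and 4 neurons. Olfr99 (37279043 to 37283460, minus strand) had 2, 3, 2 and 6, and Olfr121 (37748855 to 37753169, plus strand) had 2, 3, 2 and 4.

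Among the near-identical pairs, Olfr117 and Olfr130 had 20 neurons each, and Olfr136 and Olfr138 had 9 each. Olfr110 had 10 neurons and Olfr111, at 97.8% identity, had 2, each with 3 receptor UMIs.

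No neuron was assigned to 5 members, Olfr108, Olfr126, Olfr127, Olfr128 and Olfr137. Each of them therefore had 0 of 9791 neurons, which allows a share of up to 0.0306%. Olfr108 (37445480 to 37446517, plus strand) had 0 UMIs in any barcode of the 4 libraries, and it was the only member without a UMI. Among the other class II genes 172 (18.2%) had no neuron and 61 had no UMI in immature or mature neurons.

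Olfr137 (38303527 to 38307570, minus strand) was detected in a single mature neuron, in mouse 1, with 57 UMIs. That neuron also held 18 UMIs of Olfr285 and so received no identity. Olfr126 (37847483 to 37852057, plus strand) was found in 2 mature neurons, both of mouse 2, with 31 and 10 UMIs, and both also held Olfr916 with 22 and 14 UMIs.

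Detection of single UMIs went beyond the assigned neurons for some members. Olfr90, the first gene of the locus, had UMIs in 29 mature neurons but only 3 neurons with its identity. Olfr131 was detected in 39 mature neurons for 28 identities, and Olfr96 in 18 for 16. Such scattered UMIs were not counted as expression.

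The next question was how much receptor RNA the neurons contain. Own-receptor UMIs per 10000 UMIs of the cell had medians of 102.1, 99.4, 94.9 and 87.1 over member neurons in mice 1 to 4. Over neurons with other class II receptors the medians were 77.5, 80.7, 77.9 and 79.5. Member neurons were higher in all 4 mice and the 2 ranges did not overlap. The mean difference was 16.96 ± 7.03 (SD, n = 4), and the exact two-sided sign-flip permutation test over mice gave p = 0.125, the smallest value that 4 mice allow. These medians are over neurons, so frequent receptors weigh most. The median over receptors was 86.0 for members and 79.6 for the other class II genes.

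**Figure D2:**
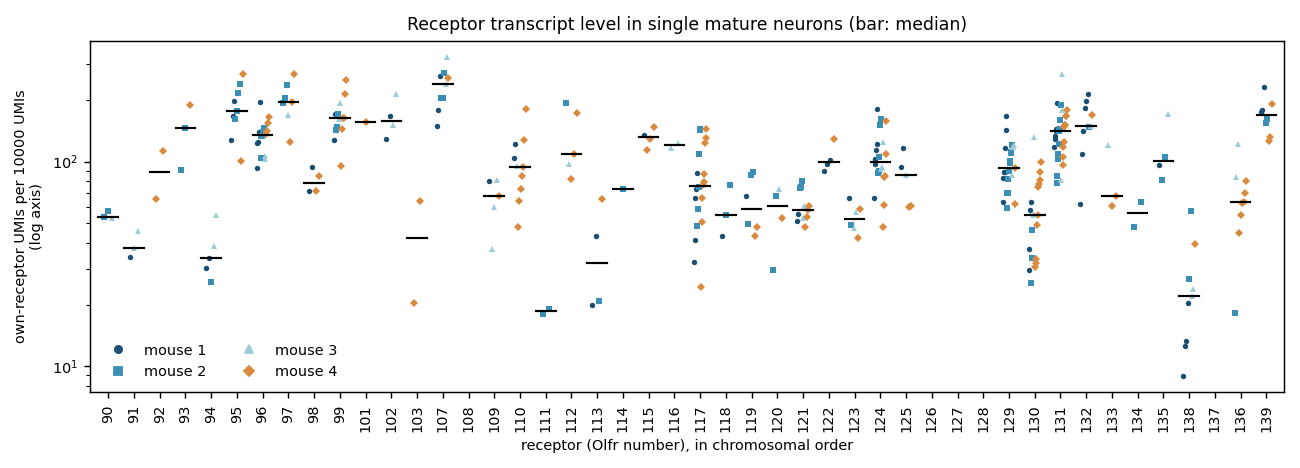
Own-receptor UMIs per 10000 UMIs in each assigned mature neuron (points, log axis) for each member, in chromosomal order; shape and colour give the mouse and black bars the median. Olfr107 neurons lie highest with a median of 241, and Olfr111 and Olfr138 neurons lowest with medians of 18.5 and 22.1.

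The level varied widely between members. Olfr107 neurons had the highest median, 241 UMIs per 10000 over 9 neurons, with a range of 150 to 326. Olfr97 followed with 195 (7 neurons, 125 to 270) and Olfr95 with 176 (9 neurons, 100 to 269). Neighbours in this upper part of the order overlapped widely.

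At the lower end, the 2 neurons of Olfr111 had 17.9 and 19.1 UMIs per 10000. The 9 neurons of Olfr138 had a median of 22.1 (8.97 to 57.5), that is 2 to 22 receptor UMIs per neuron. Those of Olfr113 had a median of 32.0 (4 neurons, 19.9 to 65.7) and those of Olfr94 33.6 (5 neurons, 25.7 to 54.9). Olfr136, the near-copy of Olfr138, had a median of 63.3 (9 neurons, 18.3 to 122), and the ranges of the pair overlapped. The order was not the same in every mouse, since in mouse 2 Olfr138 had a median of 42.0 and the single Olfr136 neuron 18.3. Mouse 1, with 4 of the Olfr138 neurons, had no Olfr136 neuron.

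Among the most frequent members the medians were 141 for Olfr131 (28 neurons), 135 for Olfr96 (16 neurons), 163 for Olfr99 (13 neurons), 100.02 for Olfr124 (20 neurons) and 92.6 for Olfr129 (23 neurons). They were 76.0 for Olfr117 and 55.1 for Olfr130 (20 neurons each) and 58.0 for Olfr121 (11 neurons). Neurons of Olfr129 ranged from 59.1 to 168 and those of Olfr131 from 78.8 to 267, so the 2 largest populations overlapped.

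The third question was in which part of the epithelium and in which transcriptomic cluster the neurons lay. The deposited clusters were made without receptor genes and separate ventral from dorsal OSNs, with subclusters named for Dlg2, Calb2, Cd36 and Cd55. Nqo1, a quinone reductase, is a known marker of dorsal neurons, and Nfix, a transcription factor, of ventral neurons. 296 of the 308 member neurons had a cluster, and the 12 without one belonged to receptors with 1 or 2 neurons.

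Dorsal clusters held 11.5%, 9.09%, 8.89% and 10.4% of member neurons in mice 1 to 4, a mean of 9.98% ± 1.24 (SD, n = 4). They held 21.9%, 18.5%, 24.2% and 20.0% of neurons with other class II receptors. The members were thus less often dorsal in each of the 4 mice. Without Olfr139, whose neurons were all dorsal, the mean was 7.77%.

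The ventral subcluster named for Dlg2, which encodes a synaptic scaffold protein, held 26.9%, 28.6%, 33.3% and 18.8% of member neurons. It held 9.66%, 8.46%, 9.01% and 7.98% of the other class II neurons. The share was higher in members in 4 of 4 mice, and the ranges did not overlap (exact two-sided sign-flip permutation test, p = 0.125, the smallest possible). The remaining ventral neurons outside the named subclusters made up 58.1% ± 5.78 of members and 53.0% ± 3.29 of the others (SD, n = 4).

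Neither subcluster named for Cd36, which encodes a fatty acid transporter, held any of the 296 clustered member neurons, against 6.34% ± 1.04 (ventral) and 1.00% ± 0.266 (dorsal) of the other class II neurons (SD, n = 4). The ventral Calb2 subcluster held 2.13% ± 2.18 of members and 6.41% ± 0.327 of the others (SD, n = 4). The 10 clusters were compared in one family, and in none could the permutation test pass 0.05 with 4 mice.

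**Figure D3:**
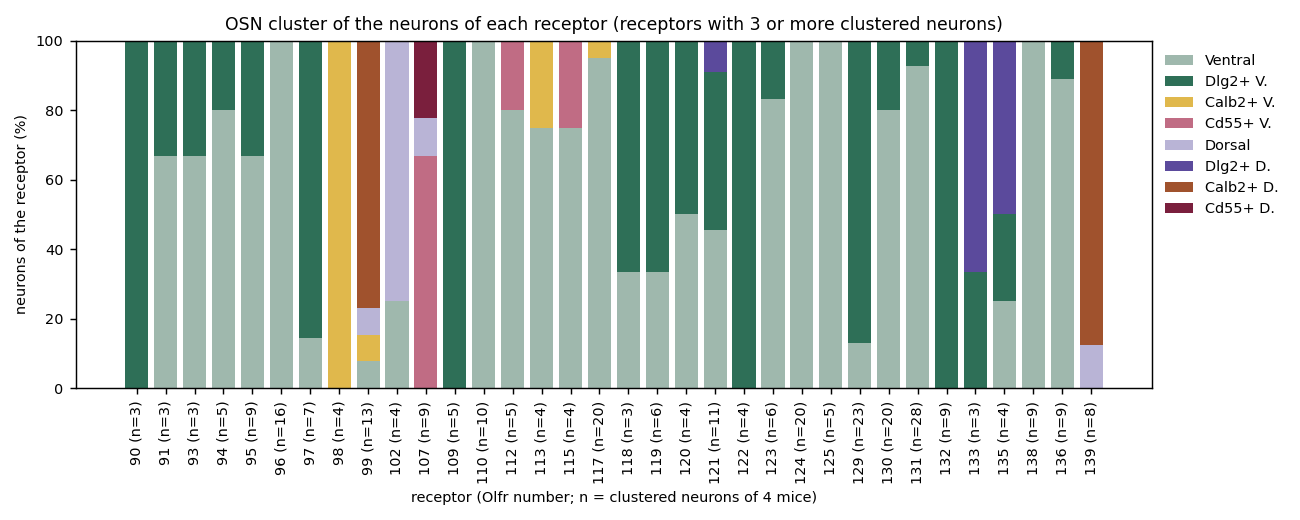
Share of the neurons of each receptor (percent, vertical axis) in each deposited OSN cluster, for receptors with 3 or more clustered neurons, summed over 4 mice. Most receptors are ventral, whereas 10 of 13 Olfr99 and 7 of 8 Olfr139 neurons lie in the dorsal Calb2 cluster.

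Within the family of Olfr97, Olfr98, Olfr99, Olfr107 and Olfr108, shown above by its coding sequence, each receptor with neurons led a different cluster. 6 of 7 Olfr97 neurons lay in the ventral Dlg2 cluster and 4 of 4 Olfr98 neurons in the ventral Calb2 cluster, although the translated frames of this pair were 94.8% identical. 10 of 13 Olfr99 neurons lay in the dorsal Calb2 cluster. 6 of 9 Olfr107 neurons lay in the ventral and 2 in the dorsal Cd55 cluster. Olfr108 had no neuron.

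The levels of the marker genes in these populations describe the clusters and are not a separate test, since the clusters were built from the same counts. Dlg2 was at 15.3 UMIs per 10000 in Olfr97 neurons (exact Poisson 95% interval 11.8 to 19.6) and had 0 UMIs in Olfr99 neurons. Calb2, which encodes the calcium-binding protein calretinin, was at 11.7 in Olfr98 neurons (7.30 to 17.6) and 18.0 in Olfr99 neurons (14.6 to 21.9). Cd55, a complement regulator, was at 16.2 in Olfr107 neurons (13.0 to 20.0). Nqo1 was at 24.9 in Olfr99 neurons (20.97 to 29.4) and 19.2 in Olfr107 neurons (15.6 to 23.2), and had 0 UMIs in those of Olfr97 and Olfr98. Olfr107 neurons thus had the dorsal marker Nqo1 high and the ventral marker Nfix at 0.744 (0.203 to 1.91), although 6 of the 9 were placed in a ventral cluster. Intervals cover counting error only.

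Among the other families, the 6 receptors Olfr118, Olfr119, Olfr120, Olfr121, Olfr122 and Olfr129, with the closest pair at 95.3% identity, had neurons mostly in the Ventral and ventral Dlg2 clusters. The ventral Dlg2 cluster held 20 of 23 Olfr129, 4 of 4 Olfr122, 4 of 6 Olfr119 and 5 of 11 Olfr121 neurons. Olfr117 and Olfr130 were both mainly in the Ventral cluster, with 19 of 20 and 16 of 20 neurons. So were Olfr138 with 9 of 9 and Olfr136 with 8 of 9, whereas their relatives Olfr133 and Olfr135 had 2 of 3 and 2 of 4 neurons in the dorsal Dlg2 cluster. The summed Olfr135 neurons nevertheless had Nqo1 at 0.584 UMIs per 10000 (0.0148 to 3.26) and Nfix at 4.09 (1.64 to 8.43).

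Several further members lay in a single cluster. Olfr132 had 9 of 9 and Olfr109 5 of 5 neurons in the ventral Dlg2 cluster. Olfr96 had 16 of 16, Olfr124 20 of 20 and Olfr110 10 of 10 in the Ventral cluster. Olfr102 was mainly dorsal, with 3 of 4 neurons in the Dorsal cluster, Nqo1 at 13.3 UMIs per 10000 (8.40 to 19.9) and Nfix at 1.152 (0.140 to 4.16).

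Olfr139, the gene on chromosome 11, had 7 of its 8 neurons in the dorsal Calb2 cluster, as did most of those of Olfr99, with Nqo1 at 21.6 UMIs per 10000 (17.1 to 26.9), Calb2 at 22.1 (17.6 to 27.4) and 0 UMIs of Nfix. A further 17 mature neurons held Olfr139 above the limit together with Olfr399 and therefore had no identity, 4, 4, 2 and 7 of them in mice 1 to 4. They held 7 to 27 UMIs of Olfr139 and 11 to 68 of Olfr399. No mature neuron had the identity Olfr399, and the 8 Olfr139 neurons held 0 UMIs of Olfr399. The gene models of Olfr139 and Olfr399 overlap by 3425 bases on the same strand in GENCODE M21, which is not the annotation used for counting, so the assignment of reads between them is uncertain. Those of Olfr115 and Olfr116 overlap by 6533 bases, with the same uncertainty.

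Besides these, 18 of the 344 mature neurons with 2 receptors above the limit held a member. 2 pairs recurred, each in 2 neurons of mouse 2, namely Olfr91 with Olfr722 and Olfr126 with Olfr916. All other pairs occurred once.

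The fourth question was whether members are transcribed in immature neurons in the same proportion as in mature ones. The immature OSNs are annotated as an early stage (iOSN1, 866 cells) and a late stage (iOSN2, 1006 cells). In mature OSNs, members took 3.31%, 3.88%, 2.93% and 3.63% of all Olfr UMIs in mice 1 to 4. In iOSN2 they took 4.85%, 3.55%, 4.57% and 4.27%, and in iOSN1 1.601%, 2.66%, 4.07% and 5.29%. The immature shares rest on 56 iOSN2 and 57 iOSN1 cells with a member UMI, so single cells weigh heavily. In mouse 3, single iOSN2 cells held 221 UMIs of Olfr112 and 208 of Olfr99, of 2552 member UMIs in iOSN2 of all mice. Mouse 1 had 322 UMIs of Olfr102 in 2 iOSN2 cells, and a single cell with 156 of Olfr97 and 55 of Olfr127. The difference between iOSN2 and mature OSNs was 0.873 ± 0.917 percentage points, higher in 3 of 4 mice (exact sign-flip permutation test, p = 0.25, SD, n = 4). After thinning to 5000 UMIs per cell, which left out 5536 of 10519 mature OSNs and 178 of 1006 iOSN2 cells, it was 1.36 points. It was then higher in 4 of 4 mice (exact sign-flip permutation test, p = 0.125, the smallest possible), but over a deeper subset of the mature OSNs. The difference was also 1.36 without the 4% of cells with most UMIs. That between iOSN1 and mature OSNs was -0.0345 ± 1.68 points (p = 0.875, same exact test) and had no common direction, with mice 1 and 2 below and mice 3 and 4 above the mature share.

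A member UMI was found in 5.02%, 6.55%, 9.26% and 6.36% of iOSN1 cells and in 4.26%, 5.79%, 7.04% and 5.64% of iOSN2 cells. After each cell was thinned to 5000 UMIs, which left out 184 iOSN1 and 178 iOSN2 cells, the means were 5.80% ± 1.97 and 5.53% ± 1.17 (SD, n = 4). Sustentacular cells, which support the neurons and should lack odorant receptors, had a member UMI in 4 of 336 cells, a mean of 1.03% ± 1.28 (SD, n = 4). Median depth was 6831 UMIs in iOSN1, 7302 in iOSN2 and 5587 in sustentacular cells. The 2 groups of horizontal basal cells had means of 1.88% ± 2.67 (HBC1, with 5.66% in mouse 3) and 0.833% ± 0.729 (HBC2; SD, n = 4). Of the 2 groups of microvillar cells, 15 of 1768 cells (Mv2) and 0 of 124 cells (Mv1) had a member UMI. No sustentacular or horizontal basal cell held more than 1 member UMI and no microvillar cell more than 2, whereas the highest count in a cell was 75 in iOSN1 and 240 in iOSN2.

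With the limit for mature neurons applied to immature ones, 18 of 532 iOSN1 and 37 of 899 iOSN2 cells with a single dominant receptor had a member. The mean shares over mice were 3.47% ± 1.08 and 4.15% ± 0.718, beside 3.11% ± 0.390 in mature OSNs (SD, n = 4).

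**Figure D4:**
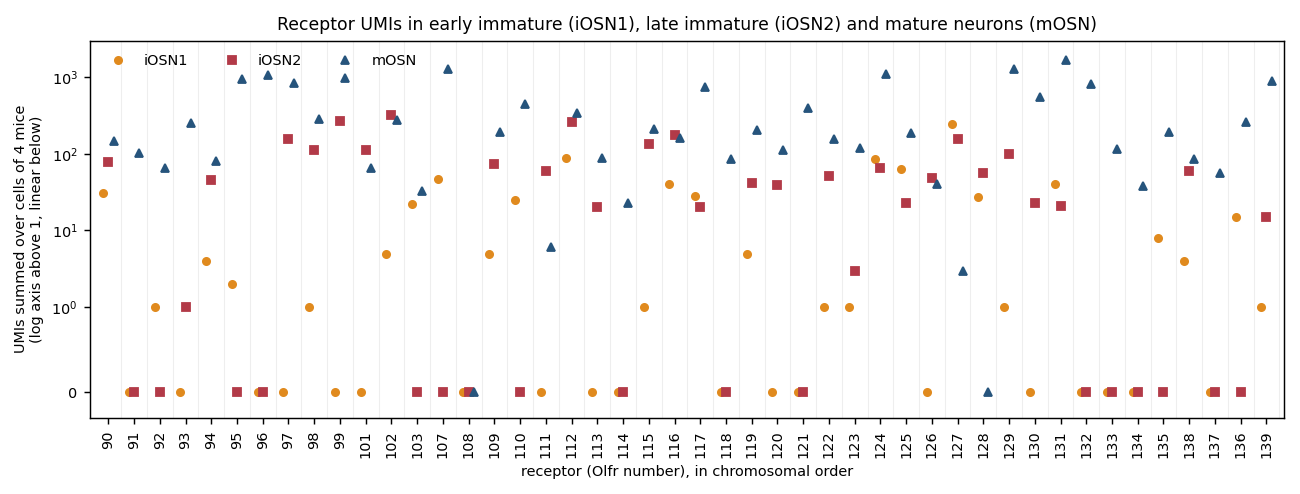
UMIs of each member summed over the cells of 4 mice in iOSN1 (circles), iOSN2 (squares) and mature OSNs (triangles); the vertical axis is logarithmic above 1 and linear below. Olfr127 and Olfr128 have 3 and 0 UMIs in mature neurons but 249 and 27 in iOSN1 and 155 and 56 in iOSN2.

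A few members were found almost only in immature neurons. Olfr127 (ENSMUSG00000058114, 37900437 to 37906795, plus strand) had 249 UMIs in 7 iOSN1 cells and 155 UMIs in 3 iOSN2 cells. In mature OSNs it had 3 UMIs, 1 in each of 3 neurons that were led by another receptor. The immature cells came from all 4 mice. Mouse 1 gave cells with 55 and 1 UMIs, mouse 2 cells with 75, 29 and 4, mouse 3 cells with 70 and 38, and mouse 4 cells with 61, 39 and 32. Of these 10 cells 5 held no other receptor UMI, and the one with 55 held 156 UMIs of Olfr97.

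Olfr128 (37920548 to 37926801, plus strand) had 56 UMIs in 1 iOSN2 cell of mouse 1, 24 in 1 iOSN1 cell of mouse 2 and 3 in an iOSN1 cell of mouse 1, and none in mature OSNs. Olfr126 was more evenly split, with 43 and 5 UMIs in 2 iOSN2 cells of mice 4 and 3 and 41 UMIs in the 2 mature neurons described above. These 3 genes, consecutive among the members and shown above by their coding sequences, thus had no assigned mature neuron. The mature population is several times larger than the immature one.

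Taking the 43 members with 50 or more UMIs in immature and mature OSNs, the immature share of a member's UMIs had a median of 15.7%, and it exceeded 50% for 8 members (18.6%). Among the 757 other class II genes with as many UMIs the median was 11.8% and 62 genes (8.19%) exceeded 50%. Over 90% stood Olfr111, Olfr127 and Olfr128 among members (6.98%) and 19 of the other genes (2.51%). 19 of the 62 other genes over 50% had no mature neuron, as did 3 of the 8 members. These shares rest on few cells per gene and are given without a test.

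Of the 8 members with most neurons, Olfr96 and Olfr121 had no UMI in immature neurons, and the immature share was 3.59% for Olfr131, 4.01% for Olfr130, 6.08% for Olfr117 and 7.45% for Olfr129. It was 12.2% for Olfr124 and 21.4% for Olfr99, the latter above the member median. Olfr102 and Olfr112 had 54.2% and 50.6%.

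The fifth question was whether a neuron with one member receptor holds UMIs of other members. In mature member neurons, members made up 0 of 23, 2 of 14, 0 of 23 and 2 of 20 of the further receptors detected in mice 1 to 4. In neurons with other class II receptors they made up 33 of 807, 16 of 706, 21 of 765 and 20 of 707. The mean difference was 3.09 ± 7.79 percentage points (exact sign-flip permutation test, p = 0.5, SD, n = 4), with 0.112 without mouse 2, 1.73 without mouse 4, 5.03 without mouse 3, 5.48 without mouse 1 and 1.19 after thinning. In immature cells with 2 or more receptors led by a member, members made up 2 of 9, 0 of 22, 0 of 3 and 0 of 4 of the further receptors in iOSN1, and 1 of 8, 0 of 4, 0 of 4 and 0 of 1 in iOSN2. At these counts a difference was not detectable.

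The clearest pair was the iOSN2 cell of mouse 1 with 156 UMIs of Olfr97 and 55 of Olfr127. That cell held 14630 UMIs, beside a median of 7302 in iOSN2, and whether it was a doublet was not tested. In the mature neurons that held a pair of members, the lesser member never exceeded 1 UMI. These included an Olfr130 neuron with 1 UMI of its near-copy Olfr117, and an Olfr118 neuron with 1 UMI of Olfr121, at 93.8% identity.

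Genes other than receptors were compared between member neurons and all other class II neurons, with counts summed per mouse and the mouse as a block. The markers of mature OSNs were high in member neurons, with Omp at 77.3 ± 4.08 and Gng13 at 90.9 ± 5.45 UMIs per 10000 (SD, n = 4). Of the markers of other cell types, Neurog1, Kit, Krt14, Trp63, Ermn, Ascl3, Cftr and Trpm5 had 0 UMIs in member neurons, and none of the rest exceeded a mean of 0.146 UMIs per 10000. 57 of 11526 genes tested (0.495%) were called at an adjusted p under 0.05, 22 higher (0.191%) and 35 lower (0.304%) in member neurons (edgeR quasi-likelihood test with Benjamini-Hochberg adjustment). With a mouse left out, 27, 32, 37 and 44 genes were called (without mice 1 to 4). The test sets each difference against a spread between mice that is moderated over all genes tested. Its p-values, and the SE given beside a log2 difference, follow that moderated spread. They do not measure how the 4 mice of a single gene differ. It does not measure the spread between receptors, which is described below for some of the genes only.

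The 4 genes for which the OSN subclusters are named all differed. Dlg2 was at 7.47, 6.59, 8.02 and 6.89 UMIs per 10000 in member neurons and at 4.30, 3.78, 4.39 and 4.51 in other class II neurons. All 4 member values lay above all others, with a log2 difference of 0.77 (SE 0.055, adjusted p = 3.63e-40, edgeR). Over receptor populations of 4 or more neurons, Dlg2 exceeded 5 UMIs per 10000 in 12 of 29 members (41.4%) and in 136 of 578 others (23.5%). The highest member levels were 29.6 in Olfr122, 24.7 in Olfr109 and 18.4 in Olfr132 neurons.

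Cd36 was nearly absent from member neurons, with 3 UMIs in 308 neurons against 2952 UMIs in the others. Per 10000 UMIs it was at 0, 0.058, 0 and 0.025 in members and at 0.567, 0.891, 0.693 and 0.725 in the others. The ratio of the summed levels was 0.0291 (exact 95% counting interval 0.00600 to 0.0852). In the other class II populations Cd36 was concentrated in few receptors, with 57 of 578 (9.86%) above 5 UMIs per 10000 and 493 (85.3%) at 0. None of the 29 member populations exceeded 0.389.

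Calb2 was at 2.70, 1.27, 1.31 and 2.26 in members and at 4.26, 3.71, 3.32 and 3.62 in the others (log2 difference -0.95, SE 0.081, adjusted p = 2.12e-28, edgeR). Without Olfr139 neurons it was -1.39. Calb2 had 0 UMIs in 18 of 29 member populations (62.1%) and exceeded 5 UMIs per 10000 in 3 (10.3%), beside 297 (51.4%) and 84 (14.5%) of the 578 others. Cd55 was at 0.925, 0.806, 0.839 and 0.532 against 1.82, 2.19, 1.92 and 1.75 (log2 difference -1.30, SE 0.12, adjusted p = 1.57e-24, edgeR). Both were lower in members in 4 of 4 mice without overlap. In Cd55, Olfr107 was the only member population above 5, beside 74 of the 578 others (12.8%).

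**Figure D5:**
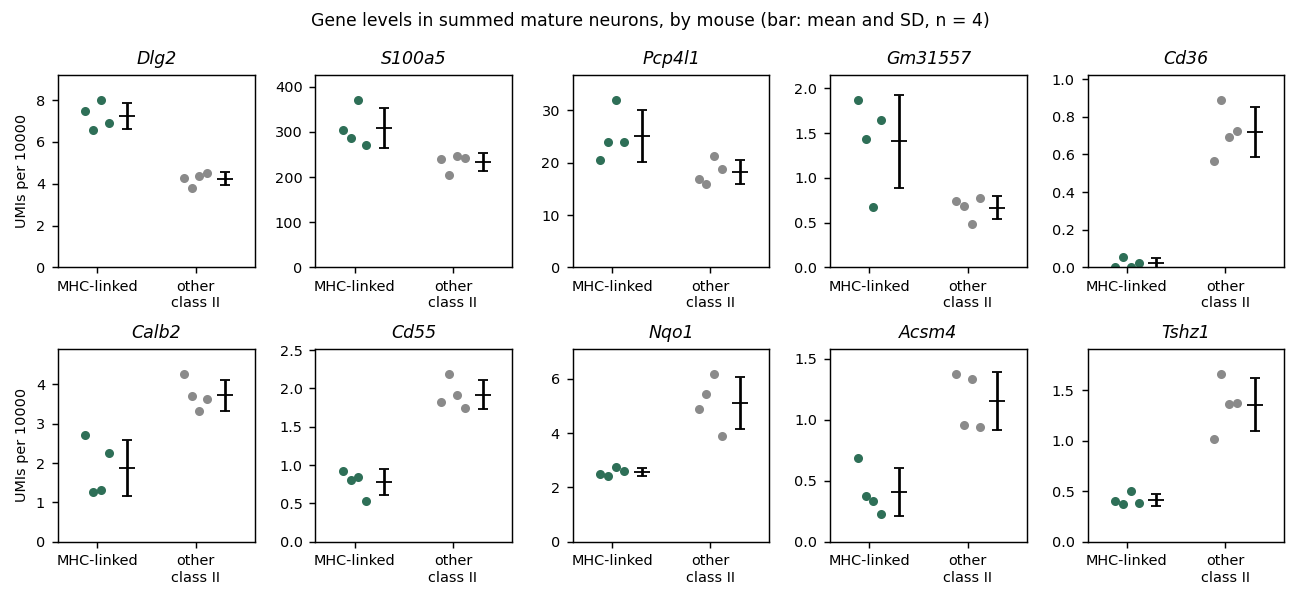
Levels of 10 genes (UMIs per 10000 UMIs, linear axes from 0) in the summed neurons with a member receptor (labelled MHC-linked, the neurons of Olfr139 included) and with other class II receptors; each point is a mouse, and bars give mean and SD (n = 4). Dlg2, S100a5 and Pcp4l1 lie higher and Cd36, Calb2, Cd55, Nqo1, Acsm4 and Tshz1 lower in member neurons, and Gm31557 is higher within each mouse; the groups overlap in Pcp4l1 and Gm31557.

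Among the 8 genes tied to position in the epithelium, 2 fell and none rose. Nqo1 was at 2.49, 2.42, 2.75 and 2.61 in members and at 4.90, 5.45, 6.18 and 3.90 in the others (log2 difference -0.97, SE 0.073, adjusted p = 4.84e-37, edgeR). Acsm4, an acyl-CoA synthetase gene with dorsal expression, was at 0.407 ± 0.198 against 1.152 ± 0.2345 (SD, n = 4), a log2 difference of -1.46 (SE 0.16, adjusted p = 2.38e-17, edgeR). Nqo1 exceeded 5 UMIs per 10000 in 4 of 29 member populations (13.8%) and in 173 of 578 others (29.9%). Without Olfr139 neurons the log2 difference was -2.23 for Acsm4 and -1.29 for Nqo1. Nfix was at 5.10 ± 0.335 against 4.42 ± 0.467 (SD, n = 4) and did not pass the test (adjusted p = 0.0663, edgeR).

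Of the 10 genes known for graded levels between OSN populations, 2 rose and 1 fell. S100a5, a calcium-binding protein gene whose level is known to follow neuronal activity, was at 309 ± 44.0 UMIs per 10000 in members and 234 ± 19.6 in the others (SD, n = 4), a log2 difference of 0.39 (SE 0.037). Pcp4l1, related to the calmodulin regulator Pcp4, was at 20.5, 24.0, 32.1 and 23.9 against 16.96, 16.0, 21.3 and 18.7, with a log2 difference of 0.45 (SE 0.040, adjusted p = 6.07e-26, edgeR). It was higher within each mouse, although the lowest member value lay within the range of the others. Neither S100a5 (adjusted p = 0.233, edgeR) nor Pcp4l1 (0.109) was called without the mouse as a block. Tppp3, a tubulin-binding protein gene, fell by 0.92 on the log2 scale (SE 0.16, adjusted p = 1.36e-05, edgeR).

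The range of these graded genes over members was wide. S100a5 went from 0.539 UMIs per 10000 in Olfr139 and 6.36 in Olfr98 neurons to 742 in Olfr109, 732 in Olfr122 and 729 in Olfr120 neurons. Its median over the 29 member populations was 257 and over the 578 others 179. Pcp4l1 followed with 0 UMIs in Olfr98, Olfr99 and Olfr115 neurons and 81.4 UMIs per 10000 in Olfr120 neurons.

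Of 12 genes known for axon sorting, 1 rose and 1 fell. Kirrel2, a homophilic adhesion molecule, was at 8.17 ± 1.64 in members and 6.83 ± 0.889 in the others (SD, n = 4), a log2 difference of 0.25 (SE 0.052, adjusted p = 0.000962, edgeR). Nrp2, a semaphorin receptor, was at 0.568 ± 0.141 against 0.885 ± 0.0645 (SD, n = 4), a log2 difference of -0.65 (SE 0.15, adjusted p = 0.00675, edgeR). The Nrp2 call was lost without mouse 1, 2 or 4 (adjusted p up to 0.221, edgeR), without Olfr131 neurons (0.0966) and with DESeq2 (0.181), and the Kirrel2 call without mouse 3 (0.118). Both calls were also lost without the mouse as a block (adjusted p = 0.163 for Nrp2 and 0.895 for Kirrel2, edgeR). The other 10 did not pass the test.

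None of the 13 genes of odorant transduction and none of the 10 regulators of receptor choice passed the test, with median log2 differences of 0.00 and 0.02 beside -0.02 over all genes tested. The 9 genes of MHC class I antigen presentation were barely detected in these neurons. Of the 5 that could be tested none passed, and Tapbp was the highest with 0.781 ± 0.0351 UMIs per 10000 in members and 0.725 ± 0.0557 in the others (SD, n = 4). None of the 22 genes that lie between the member genes and are not receptors was high enough to be tested.

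Besides the lists, the largest increases were those of Gm31557, Wdr17, Gm42912, Kcng1, Scn4b, Ubl3, Pcdh17 and Lrrc3b. Of these, Wdr17 was not called without mouse 3, Pcdh17 without mouse 4, and Gm42912 without any single mouse, and Kcng1 without mouse 1, 2 or 4. DESeq2 called none of Wdr17, Gm42912, Kcng1 and Pcdh17 (adjusted p from 0.0513 to 0.117). Without the mouse as a block, Scn4b (adjusted p = 0.312, edgeR) and Lrrc3b (0.163) were lost as well as these. Gm31557, a predicted gene, was at 1.87, 1.44, 0.671 and 1.65 UMIs per 10000 in members and at 0.736, 0.682, 0.483 and 0.773 in the others (log2 difference 1.10, SE 0.12, adjusted p = 3.90e-17, edgeR). It was concentrated in the neurons of Olfr124 (6.83), Olfr110 (5.25), Olfr131 (3.25) and Olfr129 (2.93). Over receptor populations of 4 or more neurons, Gm31557 exceeded 5 UMIs per 10000 in 2 of 29 members (6.90%) and in 16 of 578 others (2.77%). The median was 0 in both sets, and the highest of the other populations was at 13.9, above every member. Ubl3, a ubiquitin-like gene, was at 6.01 ± 1.09 against 4.36 ± 0.262, and Scn4b, a sodium channel subunit, at 2.05 ± 0.350 against 1.477 ± 0.231 (SD, n = 4). Lrrc3b was at 3.59 ± 0.502 against 2.67 ± 0.226, and Pcdh17, a protocadherin, at 2.10 ± 0.548 against 1.58 ± 0.199 (SD, n = 4).

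The largest decreases beside those above were those of Tshz1, Scgn, Ifi27 and Pdlim1. Tshz1, a zinc finger transcription factor, was at 0.403, 0.374, 0.503 and 0.380 in members and at 1.02, 1.66, 1.37 and 1.38 in the others (log2 difference -1.70, SE 0.15, adjusted p = 4.55e-25, edgeR). Scgn, which encodes the calcium sensor secretagogin, fell by 1.25 on the log2 scale (SE 0.17). Ifi27, an interferon-inducible gene, fell by 1.199 (SE 0.14) and Pdlim1 by 0.83 (SE 0.11). The mean levels of these genes over mice were at or below 1.72 UMIs per 10000 in both groups.

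The comparison was repeated among neurons of the ventral clusters, since members were less often dorsal. It used 69, 70, 41 and 86 member neurons in mice 1 to 4. 68 of 11234 genes tested (0.605%) were called, 26 higher (0.231%) and 42 lower (0.374%) in members. Without mouse 2 the count was 40 and without mouse 1 it was 45. 46 genes were called in both comparisons, which is 80.7% of the first and 67.6% of the second; they share most neurons. The clusters were built from these same counts.

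The 4 subcluster genes differed again among ventral neurons. Calb2 was at 1.12, 0.489, 0.038 and 0.714 UMIs per 10000 in members and at 3.24, 2.94, 2.62 and 2.88 in the others, a log2 difference of -2.20 (SE 0.12, adjusted p = 4.47e-66, edgeR). With DESeq2 the adjusted p of Calb2 was 0.0439. Dlg2 had a log2 difference of 0.78 (SE 0.058) and Cd55 of -1.50 (SE 0.12). The ratio for Cd36 was 0.0299 (exact counting interval 0.00617 to 0.0876). S100a5 was at 330 ± 53.0 against 239 ± 20.6 and Pcp4l1 at 26.6 ± 5.88 against 18.5 ± 2.26 (SD, n = 4), both above all values of the others. S100a5 had an adjusted p of 0.0439 with DESeq2 and was not called without the mouse as a block (adjusted p = 0.0722, edgeR).

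Of the position genes, Nfia and Cidea passed the test among ventral neurons. Nqo1 no longer passed the test, at 0.775 ± 0.701 in members and 0.519 ± 0.117 in the others (SD, n = 4; adjusted p = 0.195, edgeR). Nfia, a transcription factor related to Nfix, was at 0.206 ± 0.0587 against 0.457 ± 0.0418 (SD, n = 4), a log2 difference of -1.10 (SE 0.25, adjusted p = 0.00393, edgeR). In the first comparison it differed by -0.92 without passing (adjusted p = 0.0503, edgeR). Acsm4 differed by -1.69 among ventral neurons without passing (SE 0.47, adjusted p = 0.0516, edgeR), in the same direction as in the first comparison. Cidea, a lipid droplet protein gene, was at 1.32 ± 0.446 against 1.79 ± 0.244 (SD, n = 4) and lower in 3 of 4 mice, a log2 difference of -0.45 (SE 0.11, adjusted p = 0.00929, edgeR). Cidea was not called without mouse 2 or 4, without Olfr131 neurons (adjusted p = 0.356) or by DESeq2 (adjusted p = 0.742), and Nfia not without mouse 2 or 4. Nor was Cidea called without the mouse as a block (adjusted p = 0.652, edgeR).

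Nrp2 was at 0.533 ± 0.0788 in ventral members and 1.06 ± 0.0751 in the others (SD, n = 4), a log2 difference of -0.99 (SE 0.16, adjusted p = 3.79e-07, edgeR). Kirrel2 differed by 0.23 (SE 0.055), a call lost without mouse 2 or 3 and with DESeq2 (adjusted p = 0.062). This call was also lost without the mouse as a block (adjusted p = 0.792, edgeR). The named increases also held Selenom, a selenoprotein gene (2.27 ± 0.346 against 1.52 ± 0.139), and S100a13 (1.476 ± 0.0982 against 1.00 ± 0.0561; SD, n = 4), which was not called without mouse 3. The named decreases also held Rims3, which encodes a synaptic release protein, at 0.346, 0.457, 0.228 and 0.416 in members and at 0.624, 0.843, 0.750 and 0.754 in the others. Transduction, choice and antigen presentation genes again had none called.

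Last, the member populations were compared with each other. Only Olfr124, Olfr130 and Olfr131 had 3 or more neurons in every mouse, and all 3 lie mainly in the Ventral cluster. 25 of 451 genes tested (5.54%) differed among them (edgeR quasi-likelihood F test). The sums came from 3 to 10 neurons of a mouse. Without mouse 4 the test called 2 genes and without mouse 1 it called 7, and of the genes named below only Cartpt and Epha5 were called without mouse 4.

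Cartpt, which encodes a neuropeptide precursor, had the largest F of 72.8 (adjusted p = 2.04e-10, edgeR). It was at 0.283, 0, 0 and 0.779 UMIs per 10000 in Olfr124 neurons, at 5.48, 4.42, 3.25 and 4.56 in Olfr130 neurons and at 18.5, 5.17, 10.3 and 13.7 in Olfr131 neurons of mice 1 to 4. The 3 populations did not overlap except between Olfr130 and Olfr131. Gm31557 was at 7.07, 4.45, 2.77 and 11.7 in Olfr124 neurons, at 0 in Olfr130 neurons of every mouse, and at 7.61, 1.72, 1.82 and 1.64 in Olfr131 neurons. It had no test value without mouse 1 or without mouse 4.

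Sult1d1, a sulfotransferase gene, was at 17.2 ± 2.02 in Olfr131 neurons and at 7.53 ± 2.30 and 7.86 ± 2.07 in Olfr130 and Olfr124 neurons (SD, n = 4). Tmsb4x, an actin-binding peptide gene, was lowest in Olfr124 neurons, at 60.6 ± 11.8 against 143 ± 30.8 in Olfr130 and 152 ± 28.4 in Olfr131 neurons, as was Actb with 15.6 ± 4.28 against 29.4 ± 7.63 and 32.5 ± 2.56 (SD, n = 4). Tmbim6 was highest in Olfr130 neurons at 19.6 ± 6.68, a call lost without mouse 1 (adjusted p = 0.0672, edgeR) or 4 (0.246). Dlg2 was at 1.55 ± 1.32, 7.07 ± 6.43 and 6.41 ± 4.35 in Olfr124, Olfr130 and Olfr131 neurons and varied more between the mice within a population than most genes here.

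Of the transduction genes, 3 of the 11 tested were called among these populations, all highest in Olfr124 neurons. The calls of Ano2 and Ric8b were lost without mouse 1 or 4, and that of Adcy3 without mouse 1, 3 or 4. With DESeq2 neither Ric8b (adjusted p = 0.0663) nor Adcy3 (adjusted p = 0.184) was called. Ano2, the calcium-activated chloride channel, was at 6.14 ± 1.63, 2.92 ± 1.28 and 1.80 ± 0.501 in Olfr124, Olfr130 and Olfr131 neurons. Adcy3, the adenylyl cyclase, was at 15.7 ± 0.763, 10.8 ± 2.51 and 8.58 ± 3.43, and Ric8b, a chaperone of the olfactory G protein, at 10.6 ± 2.15, 5.75 ± 1.63 and 4.65 ± 1.28 (SD, n = 4). Epha5, an axon guidance receptor, and Rtn1 followed the same order, Epha5 with 11.4 ± 2.08, 7.06 ± 0.579 and 4.82 ± 2.10 and Rtn1 with 24.2 ± 5.13, 18.7 ± 2.00 and 11.8 ± 2.77 (SD, n = 4). Epha5 was not called without mouse 1 (adjusted p = 0.165, edgeR) or with DESeq2 (adjusted p = 0.0533).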

How the data were processed

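UMI counts per gene and barcode from 1 library for each of 4 mice were used as deposited. The authors made these counts with Cell Ranger 6.0.1 on GRCm38, using Ensembl gene models whose receptor 3′ ends had been re-annotated. The deposited counts are not normalized. Cell types, OSN clusters and receptor identities were the deposited ones, read from the metadata. The member rows of the merged table were equal to the matrices for 46 of 46 genes. Positions, gene overlaps and coding sequences are from GENCODE M21 (GRCm38), and identities are from global alignment of the longest translated reading frame of each gene (Biopython 1.88). The receptor limit was recomputed as 8.28 UMIs per 10000.

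Gene counts other than receptors were summed per mouse and group and tested with edgeR 4.0.16 (filterByExpr, TMM, quasi-likelihood, mouse as block) in R 4.3.3, Benjamini-Hochberg adjusted over all genes tested. Each SE was taken back from the test, as the size of the log2 difference divided by the square root of F. Shares were compared by exact sign-flip permutation over mice. The groups share each mouse's library, which pairs them, and the sums of a mouse deviated together (correlations of 0.298, 0.184, 0.133 and 0.121 in mice 1 to 4). On simulated counts the first comparison recovered 69% of genes changed 2-fold and 97% of those changed 4-fold. It made 5 false calls, with 11537 genes tested. The simulation gave every gene the same spread and had no effect of mouse or receptor. Its changed genes were drawn from the better expressed ones only. These settings are simpler than the data, so the recovery does not give the power of the test on them. Alternatives were DESeq2 1.42.0, other scaling, filter and cell sets, no block, and each mouse left out. Thinning drew 5000 UMIs per cell. No doublet caller was run. Libraries held 23157467 to 32382702 UMIs, and the 308 member neurons gave sums of 297909 to 421627 UMIs per mouse, which limits genes under about 0.5 UMIs per 10000.

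The members and gene lists were chosen with earlier results of these data known. The 8 members with most neurons and all members without a neuron are named. Genes are named if called, changed the same way in 4 of 4 mice and at 0.5 UMIs per 10000 or more in a group, the 10 largest changes per direction or the 10 largest F values. Genes on the lists and other members or genes singled out were named after their values were seen. Some genes that these rules or lists select are not reported here.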

Additional observations from a re-analysis of the deposited data

Results flagged for a closer look

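Among the member neurons of the ventral clusters, Selenom in mouse 3 stood far from the other mice, at 1.75 UMIs per 10000 beside 2.45, 2.45 and 2.44 in mice 1, 2 and 4. The other class II neurons of the ventral clusters were also lowest in mouse 3, at 1.32 beside 1.57, 1.55 and 1.65. It was the only one of 57 groups of 4 values to stand apart in this way. Chance alone flags about 1 in 20 such groups, so a single flag among 57 is no more than chance would give.

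The barcodes that the deposited filter had removed also held member receptors, with 885 UMIs in 114 of 5950 barcodes. 30 of these barcodes had been labelled mature OSN before the filter and held 243 of the UMIs.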

How the results depend on the processing

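The member share of neurons and the difference in receptor UMIs per neuron moved by less than their SD over mice under every alternative run. The number of members with a neuron was 38 to 41 (38 without mouse 2 or 4). The mean dorsal share was 7.77% with members on chromosome 17 only. Member UMIs in immature cells were less stable, since the difference in share between iOSN1 and mature OSNs was 0.262 percentage points after thinning, 0.135 on chromosome 17 only, and -0.599 (without mouse 4) to 0.525 (without mouse 1) on leaving out a mouse, beside -0.0345. With 2 or more UMIs required, member detection was 3.59% in iOSN1 and 4.49% in iOSN2. The excess of members among further receptors ranged from -3.91 to 4.23 points in iOSN1 and from -4.14 to 1.41 in iOSN2 on leaving out a mouse (lowest without mouse 1, highest without mouse 4), and in iOSN2 it was -4.25 without the 4% of cells with most UMIs, beside -0.414. No value was obtained for further receptors with 2 or more UMIs, nor in iOSN1 after thinning or without the 4% of cells with most UMIs, because a mouse had none left.

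Without the replicate block (the mouse), 13 genes were called between member and other class II neurons in place of 57, 22 among ventral neurons in place of 68 and 15 among the populations in place of 25. DESeq2 called 21, 27 and 10. On leaving out a mouse the counts were 27 to 44 (37 or fewer without mouse 1, 2 or 3), 40 to 58 (45 or fewer without mouse 1 or 2), and 2 to 25 (7 or fewer without mouse 1 or 4). Of the 40 changes named in the first and second comparison, none changed sign. 39 had a value under all 11 alternatives and 26 of these were called in all (leaving out Olfr139 removed no neuron from the ventral comparison and could change nothing there), while Cd36 had no DESeq2 adjusted p in the first comparison. The cause of these losses was not tested. Counts of 3 to 10 neurons per mouse and population limit the last comparison.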
